A study of Mus musculus with 12 samples.

Results

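Transcripts of 9 genes that mark satellite glia were followed through RNA sequencing of tongue-innervating trigeminal ganglion (TG) neurons from male and female mice with and without a tongue tumor. The genes were Fabp7, Apoe, Apod, Glul, Gja1, Cdh19, Sox10, Ednrb and Slc1a3, taken by symbol from 22609 gene symbols, and 9 of 9 had reads in every library. Satellite glia are the thin cells that wrap each sensory neuron cell body in a ganglion. They take up potassium and glutamate around the neuron, are joined to each other by gap junctions, and are known to change their gene expression after nerve injury and inflammation in the trigeminal territory. They come from the neural crest lineage that also gives rise to Schwann cells, with which they share many genes, and Apoe is also made by macrophages.

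The samples came from Balb/c athymic nude mice of 6 to 8 weeks, which lack a thymus. The groups were normal males (MN), males with a tongue tumor (MT), normal females (FN) and females with a tongue tumor (FT), with 3 samples each. Tumor mice received 350000 HSC3 cells (a line grown from an oral squamous carcinoma of a person) in the tongue, and ganglia were taken on day 15. The sample labels state that normal mice were given no cells, whereas the methods of the study describe an injection of normal human oral keratinocytes, so whether the tumor groups were compared with injected or uninjected tongues was not settled. All mice were injected in the tongue on day 13 with wheat germ agglutinin (WGA), a fluorescent tracer that nerve endings carry to the cell body, at 0.5% according to the labels and at another strength according to the methods. WGA-positive cells were then sorted from dissociated ganglia. A normal sample pooled 4 ganglia of 2 mice and a tumor sample pooled 4 ipsilateral ganglia of 4 mice, so that a library averages several animals and the tumor and normal samples differ in how many.

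Each library held 4592891 to 8922011 reads counted on genes. The sex labels held in 12 of 12 libraries, with Xist at 96.5 to 233.8 CPM (reads of a gene scaled by the total of reads on genes in the library) in females and at most 0.42 in males, and Ddx3y at 48.0 to 68.0 CPM in males and at most 0.27 in females. The extraction note of the labels names tumors as the source of RNA, whereas the cell type label names TG neurons. In each library 24 of 24 sensory neuron genes were detected, with a summed level of 27286 to 39425 CPM, so RNA of sensory neurons was present in all 12. Detection cannot tell how many of the sorted cells were neurons, since a ganglion holds these transcripts whether sorted or not. The libraries FN2, FT2 and FT3 stood apart. Between 52.6% and 68.4% of their reads mapped to several places against 43.0% to 45.5% in the other 9 libraries, and the highest Spearman correlation of their gene levels with any of those 9 was 0.811 to 0.908, whereas each of the 9 reached 0.987 to 0.989 with another. All 3 were female, so that the comparisons with a female group rest in part on them, and the results of the 9 genes are given with and without them. The set of 10 libraries left out FN2 and FT2, and the set of 9 libraries left out FT3 too, both chosen after the values were seen. In 9 libraries FT is FT1 alone, and that sample was taken to vary as the other groups did.

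The 9 genes lie on 6 chromosomes in the mouse build NCBIM37 (mm9), which is also the build named for the alignment. Fabp7 and Gja1 are on chromosome 10 (57504687 to 57508256 and 56097106 to 56110225, both on the plus strand), Glul and Cdh19 on chromosome 1 (155747074 to 155756853, plus strand, and 112785772 to 112873949, minus strand), and Sox10 and Slc1a3 on chromosome 15 (78985343 to 78994920 and 8584124 to 8660764, both on the minus strand). Apoe is on chromosome 7 (20281458 to 20284515), Apod on chromosome 16 (31296278 to 31314894) and Ednrb on chromosome 14 (104213842 to 104243390), all on the minus strand. Reads were counted over the exons of whole genes, and Slc1a3 has the longest summed exon length (8537 bases) and Fabp7 the shortest (1250 bases). Exons of Glul overlap those of 5830403L16Rik on the opposite strand in the annotation, and the strand setting of the counting is not given in the sources used here, so reads of that gene could be among those of Glul.

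Sox10 is the transcription factor that specifies peripheral glia, and SOX proteins bind short sites of the type ACAAAG or ACAATG. Promoter windows of 300 bases (250 before and 50 after the start of transcription) were found in the RefSeq table of build GRCm38.p6 for 7 of the 9 genes, with 3 windows for Apoe. Sox10 and Cdh19 had none there. Both 6-letter sequences were searched on both strands (their complements are CTTTGT and CATTGT, and they do not overlap each other in these windows). Of 32851 windows in the table, 18.71% held ACAAAG, 12.57% held ACAATG, 28.6% held either and 2.68% held both. Among the windows of the 9 genes, 1 window of Apoe and the window of Apod held both, and the other 7 held neither. The windows of Apoe and Apod are shown because these genes had the largest FN versus MN estimates over 12 libraries. In 10 libraries Apoe (0.78 on the log2 scale) was under Sox10 (1.20) and Cdh19 (1.08). For Apoe only the window with matches is shown. That of Fabp7 is shown because it had the largest FT versus MT estimate over 12 libraries. In 9 libraries Fabp7 (1.26) was under Sox10 (1.49). Letters in capitals are the matches, read 5′ to 3′ on the strand of the gene.
Apoe, chr7:19699139-19699438, minus strand: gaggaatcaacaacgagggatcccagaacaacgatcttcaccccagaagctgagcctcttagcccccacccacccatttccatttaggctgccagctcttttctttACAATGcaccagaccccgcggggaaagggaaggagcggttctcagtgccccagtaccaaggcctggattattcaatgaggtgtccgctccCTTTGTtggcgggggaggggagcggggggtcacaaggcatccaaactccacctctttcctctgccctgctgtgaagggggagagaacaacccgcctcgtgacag
Apod, chr16:31314759-31315058, minus strand: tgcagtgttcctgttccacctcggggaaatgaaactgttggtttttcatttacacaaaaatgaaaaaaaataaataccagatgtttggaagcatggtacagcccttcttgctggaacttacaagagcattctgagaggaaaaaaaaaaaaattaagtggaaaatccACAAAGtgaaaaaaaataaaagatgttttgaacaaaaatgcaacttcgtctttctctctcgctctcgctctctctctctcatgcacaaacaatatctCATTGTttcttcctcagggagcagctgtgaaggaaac
Fabp7, chr10:57784673-57784972, plus strand: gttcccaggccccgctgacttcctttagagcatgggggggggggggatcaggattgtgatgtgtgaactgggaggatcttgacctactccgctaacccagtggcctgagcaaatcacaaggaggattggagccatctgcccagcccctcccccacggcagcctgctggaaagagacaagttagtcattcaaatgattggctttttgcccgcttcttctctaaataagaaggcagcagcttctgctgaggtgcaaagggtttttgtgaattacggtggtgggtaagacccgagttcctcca
The first base of the match lay 144 and 54 bases before the start in Apoe, and 84 bases before and 14 bases after it in Apod. A match is a description of the letters and not a binding site, and the data hold no measurement of binding.

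The 9 genes together took 0.331% to 0.472% of the reads on genes in the 6 male libraries and 0.636% to 1.82% in the 6 female libraries. Apoe alone gave 80.4% to 91.8% of these reads in every library. In RPKM (CPM divided by the exon length in kilobases), the scale on which levels of different genes can be compared, Apoe was first in each group, with a mean of 1843 ± 175 (SD, n = 3) in MN, 1578 ± 326 in MT, 4825 ± 2644 in FN and 4739 ± 2893 in FT. Fabp7 came second in each group, from 95.0 RPKM in MT to 399.3 in FT, and its libraries overlapped those of the next gene, Apod, in MT, FN and FT. Slc1a3 was last in each group at 1.06 to 1.85 RPKM, under the limit of 5 that the study set for calling a gene. Between them, Glul, Gja1, Apod, Ednrb, Cdh19 and Sox10 had group means of 11.4 to 196.6 RPKM. Within MN the neighbours Glul, Gja1 and Apod overlapped in level, as did Ednrb, Cdh19 and Sox10. In FT the overlap extended to each pair of neighbours from Glul down to Slc1a3.

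**Figure D1:**
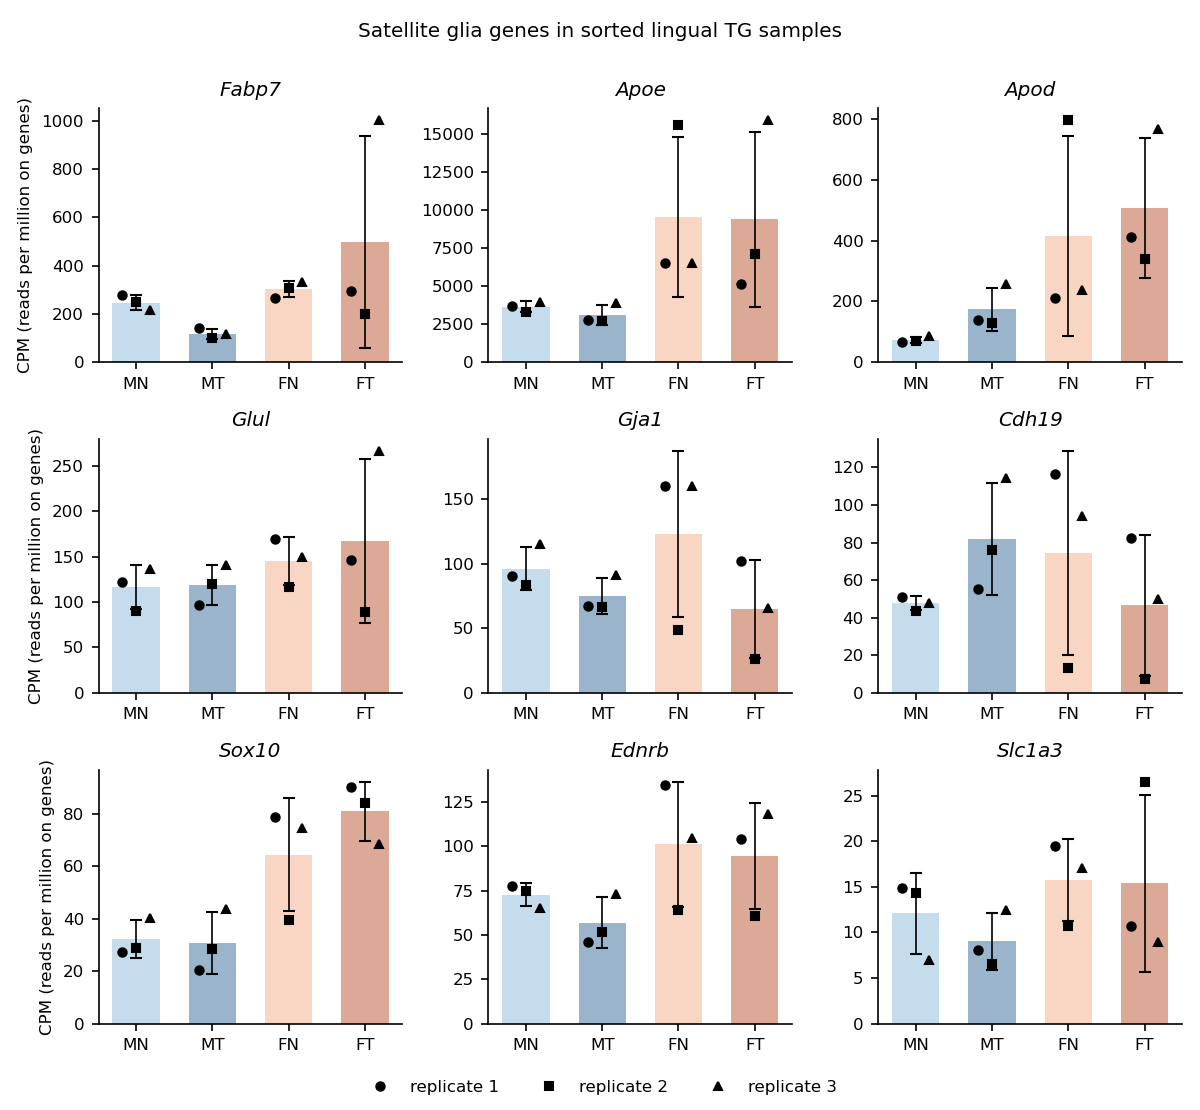
Level of each gene in CPM (vertical axes from 0) by group. Symbols are the 3 libraries of a group, bars their mean and error bars 1 SD. Male libraries of a group differ by up to 2.15-fold (Sox10 in MT). FN2 and FT3 are far above their groups for Apoe and Apod, FT3 is at 1002 CPM for Fabp7, and FN2 and FT2 are far below for Cdh19 and Gja1.

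Fabp7 encodes the fatty acid binding protein of brain and glia and is among the genes most used to recognise satellite glia. Its level was 277.3, 248.7 and 214.6 CPM in MN, 140.6, 98.5 and 117.1 in MT, 266.4, 309.0 and 334.1 in FN, and 296.7, 198.1 and 1002 in FT. All 3 MT libraries were under all 9 others, and FT3 was far above the other 2 FT libraries.

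Apoe encodes apolipoprotein E, the main lipid carrier that glia and macrophages secrete. It stood at 3700, 3280 and 3968 CPM in MN, 2774, 2730 and 3870 in MT, 6547, 15599 and 6516 in FN, and 5119, 7135 and 15893 in FT. Every female library was above every male library, and FN2 and FT3 were the highest. Apod encodes apolipoprotein D, a lipocalin that carries small lipids and is known to increase in injured peripheral nerve. Apod was at 67.2, 70.4 and 85.7 CPM in MN, 137.7, 129.9 and 256.3 in MT, 211.8, 795.9 and 237.2 in FN, and 411.7, 339.9 and 768.6 in FT. MN was the lowest group without overlap, and MT and FN overlapped through MT3.

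Glul encodes glutamine synthetase, which converts the glutamate that glia take up into glutamine, and Slc1a3 encodes the glutamate transporter GLAST. Glul was at 121.9, 89.8 and 136.9 CPM in MN, 96.3, 119.8 and 140.9 in MT, 169.7, 116.9 and 149.4 in FN, and 146.5, 89.3 and 266.3 in FT. Slc1a3 was at 14.9, 14.3 and 7.0 CPM in MN, 8.05, 6.53 and 12.5 in MT, 19.5, 10.7 and 17.1 in FN, and 10.7, 26.6 and 8.92 in FT. The 4 groups overlapped for both genes, and Slc1a3 rested on 47 to 155 reads per library.

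Gja1 encodes connexin 43, which forms gap junctions between satellite glia, and Cdh19 encodes a cadherin of peripheral glia and their precursors. Gja1 was at 90.5, 83.3 and 115.1 CPM in MN, 67.4, 66.3 and 91.0 in MT, 160.0, 48.5 and 160.4 in FN, and 102.5, 26.3 and 65.7 in FT. Cdh19 was at 51.2, 43.7 and 48.1 CPM in MN, 55.1, 76.3 and 114.2 in MT, 116.3, 13.2 and 94.0 in FN, and 82.3, 7.18 and 50.1 in FT. FN2 and FT2 were the lowest of the 12 libraries for both genes, whereas FN1 and FN3 were the highest for Gja1. All 3 MT libraries exceeded all 3 MN libraries for Cdh19.

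Sox10 was at 27.4, 28.9 and 40.4 CPM in MN, 20.4, 28.6 and 43.7 in MT, 78.9, 39.7 and 74.6 in FN, and 90.4, 84.3 and 68.5 in FT. Ednrb encodes the endothelin receptor B of neural crest cells and glia, and it was at 77.6, 75.0 and 65.3 CPM in MN, 46.0, 51.5 and 73.1 in MT, 134.5, 64.2 and 104.9 in FN, and 104.3, 60.7 and 118.2 in FT. Sox10 was higher in every female library than in every male library except FN2, which lay between MN2 and MN3. Ednrb was highest in FN1, and FN2 and FT2 were within the range of the males.

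Counts of all genes were fitted with edgeR in 1 model of the 12 libraries and 4 groups, and p-values were adjusted over all genes tested with the Benjamini-Hochberg method. A gene was called by the criteria of the study, which asked for a change of more than 1.5-fold with p under 0.05 before adjustment, in a gene that averaged over 5 RPKM in a compared group. All 9 genes passed the filter on low counts. No gene of any kind had an adjusted p under 0.05 in any of the 5 comparisons of this fit (0% of the genes tested in each), while 59 to 1610 genes had an unadjusted p under 0.05. With an adjusted p under 0.05 as the threshold, DESeq2 called between 0 and 246 genes per comparison, and limma-voom with sample quality weights between 0 and 800. The calls below therefore rest on unadjusted p-values. The share or number of all genes that met the same criteria is given beside most counts of the 9 genes.

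**Figure D2:**
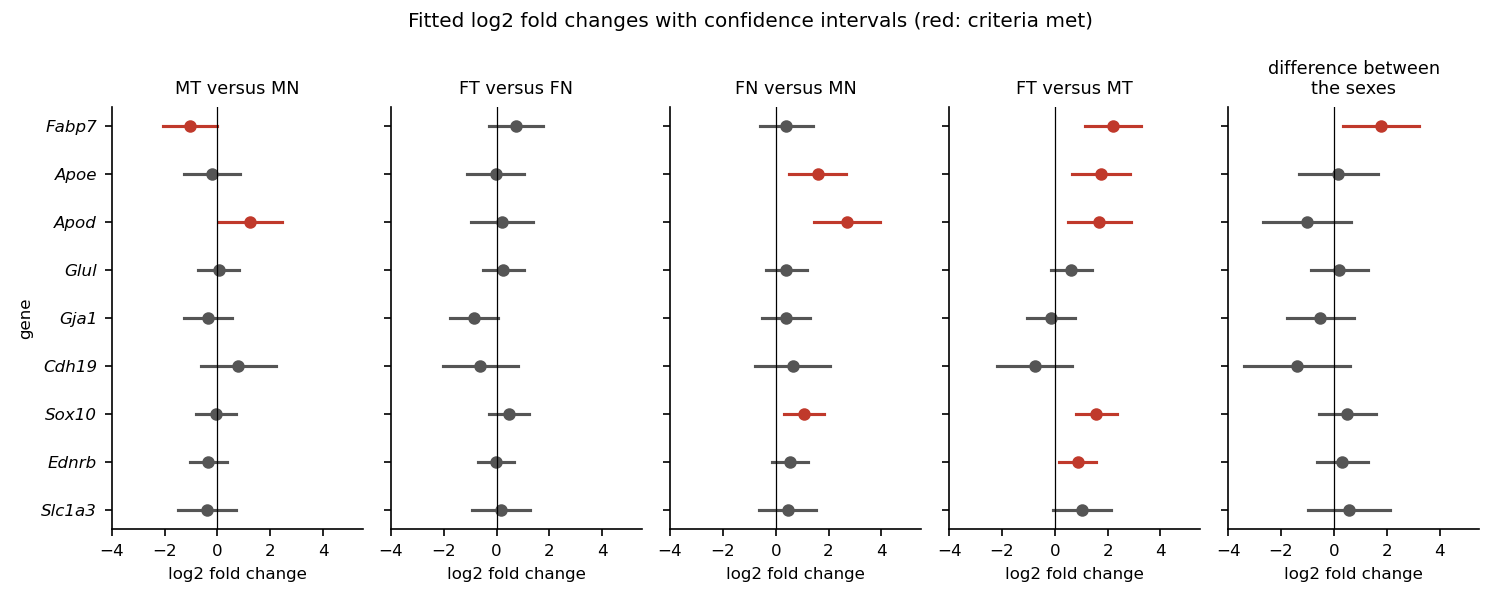
Fitted log2 fold change (horizontal axes) of each gene in the 4 comparisons and in the difference between the sexes in the tumor effect, over 12 libraries. Points are the edgeR estimates, lines their 95% intervals, and red marks the genes that met the criteria. Genes in red are Fabp7 and Apod in MT versus MN, Apoe, Apod and Sox10 in FN versus MN, 5 genes in FT versus MT, and Fabp7 in the difference.

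To see what tumor growth did to these transcripts in males, MT was compared with MN. Fabp7 was lower and Apod higher in MT, and the other 7 genes did not meet the criteria, so that 2 of 9 genes were called where 0.152% of 13835 genes were (21 genes). Fabp7 was 2.05-fold lower (log2 fold change -1.04, SE 0.48, 95% interval -2.06 to -0.01, adjusted p = 1), and Apod was 2.36-fold higher (log2 fold change 1.24, SE 0.56, 95% interval 0.05 to 2.43, adjusted p = 1). Both intervals came close to 0. The study's list, drawn from the same samples, also held both genes with these directions. Fewer satellite glia in a sample and less RNA per cell cannot be told apart in such bulk values, here and in the comparisons that follow. Cdh19 was 1.73-fold higher in this fit (log2 fold change 0.79, 95% interval -0.63 to 2.20). The remaining 6 genes lay between -0.41 for Slc1a3 and 0.05 for Glul on the log2 scale, and the median over the 9 genes was -0.21 against 0.01 over all genes tested.

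When only the 6 male libraries were fitted, the values were the same and their errors smaller. Fabp7 (log2 fold change -1.04, SE 0.15, adjusted p = 0.0641), Apod (1.24, SE 0.22, adjusted p = 0.1284) and Cdh19 (0.79, SE 0.20, adjusted p = 0.3585) were then called, which is 3 of 9 genes where 0.878% of 13322 genes were called. With the adjusted p as the threshold 0 of the 9 were called by edgeR in that fit, where 0.045% of all genes were. In it 5 of the 9 and 922 of all genes had an unadjusted p under 0.05. Over 12 libraries 2 of the 9 had one. With an adjusted p under 0.05, DESeq2 called 0 of the 9 and 2 of 13835 genes, and limma-voom 2 and 47. The same 3 genes were called in 10 libraries (0.645% of all genes) and in 9 libraries (0.873%), with adjusted p-values in the 9 libraries of 0.0586, 0.0769 and 0.2984 (0.0209% of all genes had an adjusted p under 0.05). In the shared fit Fabp7 lost its call without any 1 of the 6 male libraries or without FN1 or FN3, and Apod without any 1 of MN1, MN2, MN3, MT1, MT3 and FT2. Over the 12 fits that left out 1 library each, Fabp7 stayed between -1.21 and -0.92 on the log2 scale and Apod between 0.89, without MT3, and 1.40. The MN and MT libraries did not overlap for Fabp7 (lower), Apod and Cdh19 (higher), 3 of 9 genes where 13.1% of all genes showed no overlap.

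Apod and Fabp7 moved apart within the same libraries. Apod was 0.242, 0.283 and 0.400 times the level of Fabp7 in CPM in the MN libraries, and 0.979, 1.32 and 2.19 times in the MT libraries. The female libraries gave ratios of 0.795, 2.58 and 0.710 in FN and 1.39, 1.72 and 0.767 in FT. All 9 libraries other than MN had a ratio above the highest of MN. Against Sox10, Fabp7 was 10.1, 8.60 and 5.31 times as high in MN and 6.90, 3.44 and 2.68 times in MT, with overlap between the groups. Apod was 2.45, 2.43 and 2.12 times Sox10 in MN and 6.76, 4.54 and 5.86 times in MT, without overlap.

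**Figure D3:**
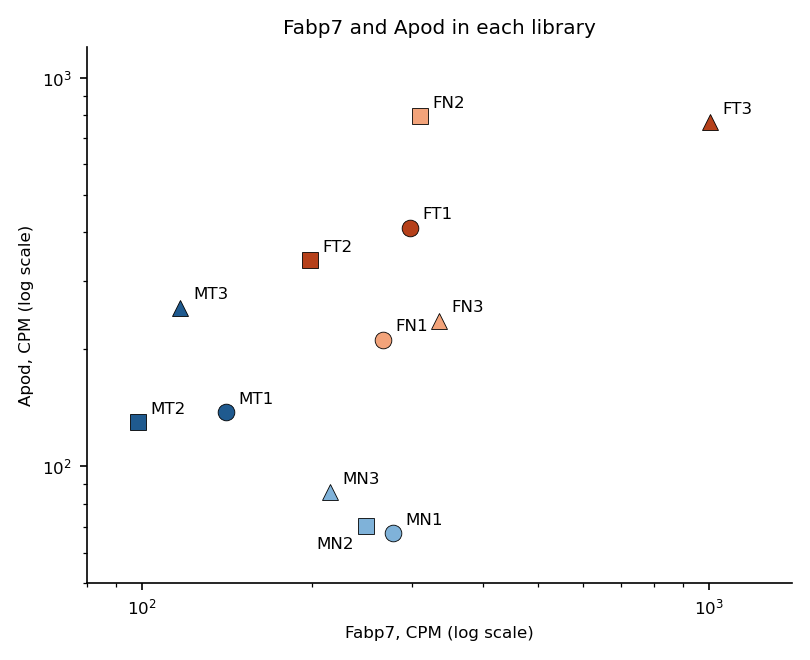
Fabp7 (horizontal) against Apod (vertical), both in CPM on log scales, with 1 point per library. The MT libraries lie to the left of and above the MN libraries, FN1 and FN3 lie above MN at a like level of Fabp7, and FN2 and FT3 are the highest for Apod.

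To see the sex difference without a tumor, FN was compared with MN. Apoe, Apod and Sox10 were higher in FN, and all 9 estimates were above 0. The 3 calls of 9 compare with 3.69% of 13360 genes, and with 3.53% for genes higher in FN. Sex chromosome genes took no part in this comparison or in FT versus MT, as in the study. The study reported more sorted cells and a higher percentage of WGA-positive cells in female samples than in male samples, with and without a tumor. The part of this in the comparisons between the sexes was not tested. Apod was 6.55-fold higher (log2 fold change 2.71, SE 0.58, adjusted p = 0.809), Apoe 3.00-fold higher (1.58, SE 0.51, adjusted p = 0.809) and Sox10 2.08-fold higher (1.06, SE 0.35, adjusted p = 0.809). With an adjusted p under 0.05 as the threshold, edgeR called 0 of the 9 over 12 libraries, DESeq2 1 and limma-voom 6. Of 13360 genes, edgeR called 0, DESeq2 20 and limma-voom 800 at that threshold. The 6 genes that did not meet the criteria had log2 fold changes of 0.38 for Gja1 to 0.64 for Cdh19, and the median of the 9 was 0.54 against 0.07 over all genes tested. Of the 9 genes, 2 (Apoe and Apod) showed no overlap between the libraries, where 19.8% of all genes did and 9.66% did so with FN higher.

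FN2 decided the size of 2 of these values. Without it Apod stood at 1.56 on the log2 scale and kept its call, and Apoe stood at 0.81 and lost it, while Ednrb was then called at 0.68. In 10 libraries 5 of 9 genes were called, where 2.27% of all genes were. These were Apod (1.54), Sox10 (1.20), Cdh19 (1.08), Gja1 (0.68) and Ednrb (0.66), all higher in FN. In 9 libraries Apoe was called again (0.79) with these 5, so 6 of 9 genes where 3.18% of all genes were, and Apoe and Apod had an adjusted p of 0.0309, where 0.391% of all genes had one under 0.05. Fabp7 was at 0.23 and Glul at 0.41 in that set, neither called.

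With a tumor in both sexes, FT was compared with MT. Fabp7, Apoe, Apod, Sox10 and Ednrb were higher in FT, 5 of 9 genes where 8.14% of 13360 genes met the criteria and 6.74% did so with FT higher. Fabp7 was 4.55-fold higher (log2 fold change 2.19, SE 0.49, adjusted p = 0.255), Apoe 3.37-fold (1.75, SE 0.51, adjusted p = 0.321) and Apod 3.22-fold (1.69, SE 0.56, adjusted p = 0.331). Sox10 was 2.97-fold higher (1.57, SE 0.36, adjusted p = 0.264) and Ednrb 1.82-fold (0.86, SE 0.32, adjusted p = 0.344). With an adjusted p under 0.05 as the threshold, edgeR and limma-voom called 0 of 13360 genes over 12 libraries, and DESeq2 called 246. Of the 9, DESeq2 called 3, which were Sox10 (adjusted p = 0.0026), Fabp7 (adjusted p = 0.0031) and Apoe (adjusted p = 0.0374). Over 21 fits the adjusted p ran up to 0.7405 for each of these. Slc1a3 (1.02, 95% interval -0.09 to 2.13) and Glul (0.62, -0.16 to 1.40) did not meet them, nor did Gja1 (-0.13) and Cdh19 (-0.77). The median of the 9 was 1.02 against 0.07 over all genes tested. Fabp7, Apoe, Apod and Sox10 showed no overlap, 4 of 9 genes where 17.6% of all genes did and 8.03% did so with FT higher.

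The size of the difference in Fabp7 and Apoe depended on FT3. Without FT3, Fabp7 was at 1.21 and Apoe at 1.21 on the log2 scale, both still called. Ednrb lost its call without MT1 (0.76), MT2 (0.80) or FT3 (0.68), and Glul gained one without FT2 (0.84). In 10 libraries 6 of 9 genes were called, the 5 above and Glul (0.85), where 13.9% of all genes were. In 9 libraries the 5 remained, where 2.07% of all genes were called, with Fabp7 at 1.26, Sox10 at 1.49, Apod at 1.19, Ednrb at 0.82 and Apoe at 0.66.

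To see what tumor growth did in females, FT was compared with FN. None of the 9 genes met the criteria in edgeR over 12 libraries (0 of 9, where 2.17% of 13835 genes did), and 0 had an unadjusted p under 0.05. By the same criteria DESeq2 called 0 of the 9 and 367 of all genes. Limma-voom called 2 (Apod and Gja1) and 520 of all genes. The study, which used DESeq, listed Fabp7 and Apod as higher in FT than in FN. The largest estimates were -0.86 for Gja1 (95% interval -1.77 to 0.06) and 0.74 for Fabp7 (-0.28 to 1.76), and the intervals reached 2-fold or beyond in at least 1 direction for 8 of the 9 genes. No gene of the 9 was free of overlap between FN and FT, where 2.49% of all genes were. The median of the fitted values was 0.16 against -0.06 over all genes, whereas the median of the differences in mean log2 CPM was -0.07, so the sign of the list depended on the measure.

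The result in females turned on single libraries. Apod was called without FN2 (1.36), Gja1 without FN2 (-1.18) or FT1 (-1.23), and Fabp7 without FT1 (1.05) or FT2 (1.07), while without FT3 Fabp7 was at -0.23. In 10 libraries 3 of 9 genes were called, where 9.73% of all genes were. These were Apod (1.52, SE 0.37), Fabp7 (1.26, SE 0.46) and Gja1 (-0.85, SE 0.25), with an adjusted p of 0.334 each. In 9 libraries Apod (0.88, SE 0.29) and Gja1 (-0.64, SE 0.21) were called with an adjusted p of 0.997, 2 of 9 genes where 0.978% of all genes were, and Fabp7 was at -0.01 (SE 0.22). Apod had a positive estimate and Gja1 a negative one in both reduced sets, which both leave out FN2. When 1 library was left out, Apod was negative without FN1 (-0.15), FN3 (-0.12) or FT3 (-0.17), whereas Gja1 stayed negative in each such fit.

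The effect of the tumor was tested for a difference between the sexes with an interaction term, FT minus FN less MT minus MN. Fabp7 met the criteria, 1 of 9 genes where 0.614% of 13835 genes did, with a log2 difference of 1.78 (SE 0.68, 95% interval 0.33 to 3.22, adjusted p = 0.9997). It lost the call without FT3 (0.80). Apod, which was called in males and not in females, gave -1.02 (95% interval -2.69 to 0.64), so a difference between the sexes was not shown for it. Cdh19 gave -1.40 (-3.41 to 0.60) in 12 libraries and was called without FN2 (-1.87). In 10 libraries Fabp7 (2.30, SE 0.60) and Cdh19 (-1.37, SE 0.39) were called, where 3.84% of all genes were, and in 9 libraries the same 2 genes (1.03, SE 0.26, and -1.14, SE 0.36), where 2.08% were.

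The 3 libraries that stood apart differed from the rest of their groups by gene length. In FN2 against FN1 and FN3, the median log2 difference was 1.31 over 498 genes with exons of up to 1000 bases and -1.02 over 6298 genes of more than 4000 bases. FT3 against FT1 gave 0.73 and -0.65 for the same classes, and FT2 against FT1 gave 0.97 and -0.46, while FN1 against FN3 gave 0.18 and -0.03. Among the 9 genes, Apoe (1980 bases) was 1.26 higher in FN2 and 1.63 higher in FT3 on the log2 scale, beside medians of 0.82 and 0.66 over genes of 1000 to 2000 bases. Apod (2577 bases) was 1.83 higher in FN2 beside a median of -0.61 in its class, and Cdh19 (3054 bases) was at -2.96 in FN2 and -3.47 in FT2 beside -0.61 and -0.97. Fabp7 (1250 bases) was 1.76 higher in FT3 and 0.05 higher in FN2. The part of gene length in the differences between groups was not tested.

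**Figure D4:**
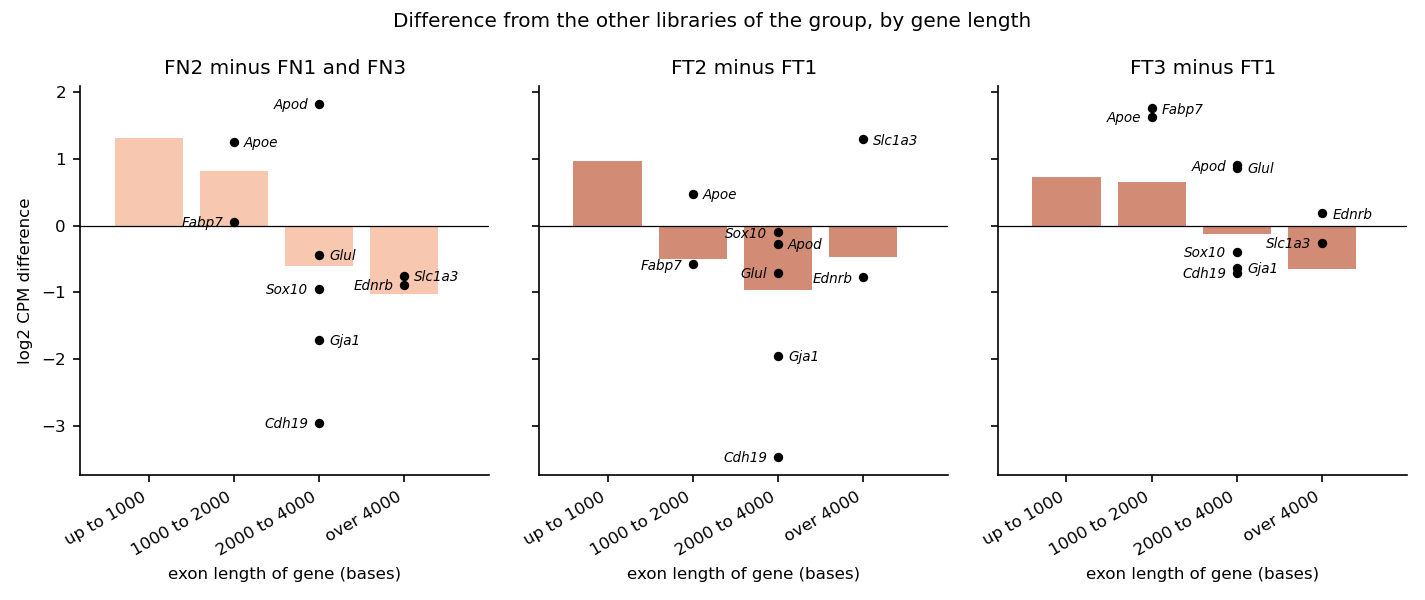
Median log2 difference in CPM of all genes by exon length class (bars) and of each of the 9 genes (points) in FN2, FT2 and FT3 against other libraries of the same group. Short genes are above 0 and the longest below 0 in each panel, and Cdh19 and Gja1 lie under the bar of their class in FN2 and FT2.

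A further 24 genes of satellite glia, among them those for the potassium channel Kir4.1 (Kcnj10) and for S100b, were listed beside the 9, and 24 of 24 were tested. None met the criteria in MT versus MN (10 estimates higher and 14 lower, median -0.03), where 0.152% of all genes did. In FT versus FN 1 did, where 2.17% of all genes did, in FN versus MN 5 (3.69% of all genes), and in FT versus MT 12 (8.14%), of which 11 were higher and 1 lower in FT. In FN versus MN 22 of the 24 estimates were above 0, with a median of 0.67, and the 5 genes called were Dbi (1.90, adjusted p = 0.809), Metrn, Lgi4, Sparc and Vim. In FT versus MT the median was 1.15, and Metrn, which encodes a protein secreted by glial cells, gave the smallest p (log2 fold change 2.88, SE 0.58, adjusted p = 0.255). Metrn was at 5.03 to 7.41 CPM in MT and at 15.2, 65.5 and 28.7 CPM in FT. The gene called in FT versus FN was S100b (1.75, SE 0.76), which stood at 369.8, 3969 and 807.8 CPM in the FT libraries. In 10 libraries the 24 genes had a median of 0.62 in FN versus MN, with 7 called higher (2.27% of all genes were called). Their median in FT versus MT was 0.63, with 9 called higher and 1 lower (13.9% of all genes). In FT versus FN the median went from 0.23 in 12 libraries to -0.03 in 10 libraries, with 2 called higher and 2 lower (9.73%).

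Marker lists of other cells moved with some of the same groups. The 20 macrophage genes, complement C1q and lysosomal genes among them, summed to 36.6 to 61.3 CPM in MN, MT1 and MT2, to 370.4 CPM in MT3 and to 233.1 to 639.3 CPM in the 6 female libraries. In FN versus MN 9 of these 20 were called, all higher, where 3.69% of all genes were, with Lyz2 at 8.63 to 11.7 CPM in MN and 60.4 to 139.3 CPM in FN (log2 fold change 3.39, adjusted p = 0.809), C1qa at 3.62 and Fcgr3 at 4.36. In FT versus MT 5 were called (8.14% of all genes) and 10 in 10 libraries (13.9%), with Fcer1g (3.61) and Tyrobp (4.11) giving the smallest p over 12 libraries. In MT versus MN 3 were called, where 0.152% of all genes were (Ctss 2.52, C1qa 2.22 and Lyz2 1.79), and these stood at 31.5 to 83.6 CPM in MT3 against at most 10.6 CPM in MT1 and MT2. MT3 was also the highest MT library for 8 of the 9 satellite glia genes, all but Fabp7. Of the 20 macrophage genes, 3 were at 0 in MT1 (Cx3cr1, Ptprc and Itgam) and 1 each in MN3 (Fcgr3), FN2 (Ptprc) and FT2 (Emr1), whereas C1qa was at 1.68 to 3.80 CPM in MN. The part of macrophage RNA in the levels of Apoe and Apod was not tested, and Fabp7 was low in all 3 MT libraries, with MT3 at 117.1 CPM between the other two.

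The myelinating Schwann cell list (16 genes) summed to 1832 to 4768 CPM and was lowest in FT2 and MT1. By edgeR 0 of its 15 genes tested were called in MT versus MN (0.152% of all genes) and in FT versus FN (2.17%). In FN versus MN 1 of 12 genes tested was called (3.69% of all genes), with 6 estimates higher and 6 lower. In FT versus MT 11 of 12 estimates were higher, with a median of 0.45 and 1 called (8.14%). In 10 libraries 4 of 12 were called higher in FT versus MT (13.9%) and 1 of 12 in FN versus MN (2.27%). The 14 endothelial genes ran from 370.1 CPM in FT2 to 1954 CPM in FN3. Their median was -0.74 in FT versus FN with 0 called, where 2.17% of all genes were. In 10 libraries 2 were called lower there (9.73% of all genes). The median was 0.65 in FN versus MN with 2 called, where 3.69% of all genes were, and 5 were called higher in 10 libraries (2.27%). Ly6c1 was called in the difference between the sexes (-1.73, adjusted p = 0.9997), where 0.614% of all genes were. Of the 13 fibroblast genes tested, 3 were called in FN versus MN, where 3.69% of all genes were, and 1 in FT versus MT, where 8.14% were. The 24 sensory neuron genes stayed within -0.40 and 0.06 of MN in mean log2 level, but single genes went far in both directions in the libraries that stood apart. Avil was at 242.0, 662.8 and 425.0 CPM in FN2, FT2 and FT3, and at 1148 to 1526 CPM in the other 9 libraries. Calca was at 11272, 3242 and 7157 CPM in FN2, FT2 and FT3, and at 3295 to 4589 CPM in the other 9 libraries. Thy1 (1.36) and Nefh (1.60) were called in FT versus FN, where 2.17% of all genes were. Tac1 (1.34) and Scn10a (-0.90) were called in FN versus MN (3.69% of all genes), and Nefh (1.43) in FT versus MT (8.14%). In 10 libraries 22 of the 24 estimates were lower in FN versus MN, with 3 called lower, where 2.27% of all genes were called. In FT versus FN 5 were called higher in that set, where 9.73% of all genes were called. On the plain log2 CPM scale the median difference of 15871 genes with a mean count of 1 or more was -0.01 in MT versus MN, -0.13 in FT versus FN, -0.06 in FN versus MN and -0.18 in FT versus MT, while the same medians of the fit, which uses TMM scaling, lay between -0.06 and 0.07.

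**Figure D5:**
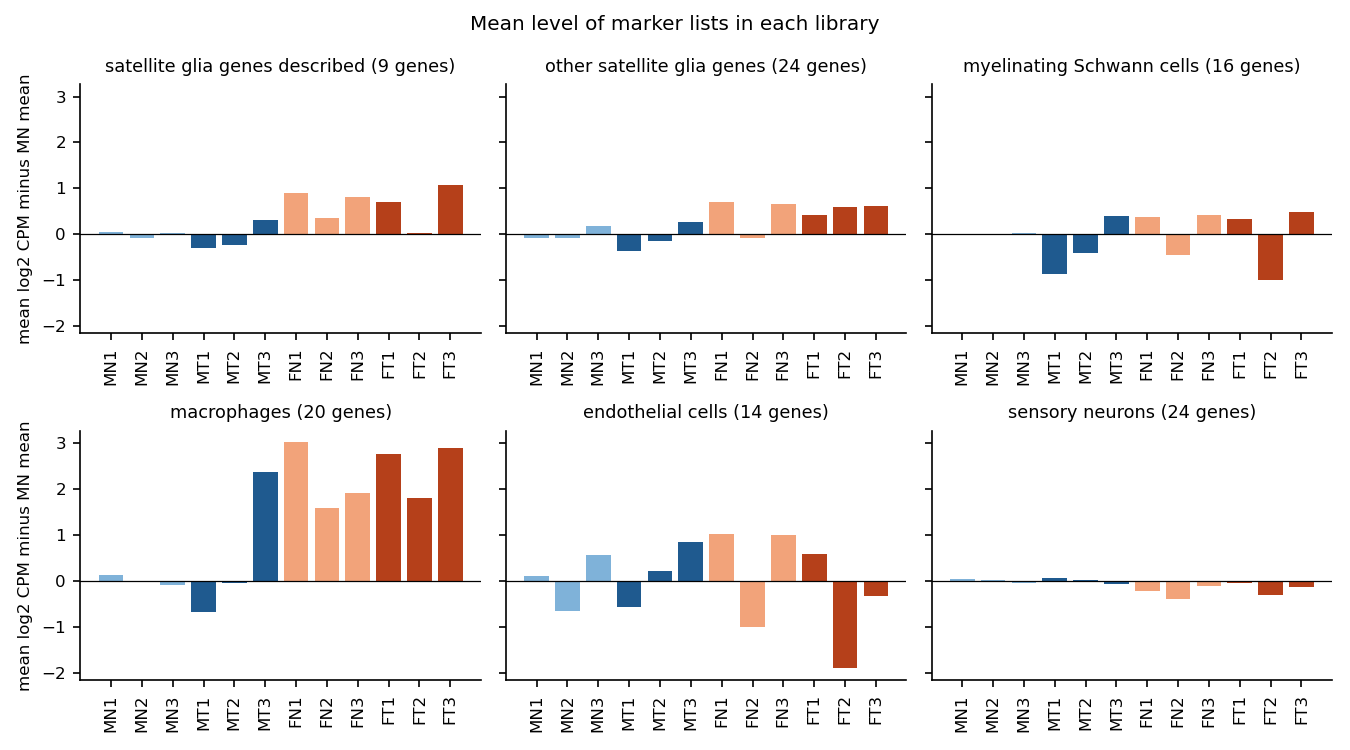
Mean over the genes of a list of log2 CPM minus the MN mean (vertical axes, 1 bar per library, groups by color) for the 9 genes and 5 other marker lists. Macrophage genes are at or under the MN level in MT1 and MT2 and above it in MT3 and all females. The 9 genes are above it in MT3 and all 6 females, but by only 0.03 in FT2, which is under MN1 at 0.05. Sensory neuron genes lie between -0.40 in FN2 and 0.06 in MT1.

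The 9 genes did not vary as a block. Over 12 libraries the pairs with the highest Pearson correlation of log2 CPM were Gja1 and Cdh19 (0.85) and Apoe and Apod (0.85), and the lowest pair was Apoe and Cdh19 (-0.41). Over the 9 libraries without FN2, FT2 and FT3, Apoe went with Gja1 (0.96), Ednrb (0.93) and Sox10 (0.92), and Fabp7 and Cdh19 had -0.08. The points share library, depth and the sex of the mice, and these values are descriptions. The 5 genes whose log2 CPM was most like the mean profile of the 9 over 12 libraries were Notch1 (r = 0.96), 0610030E20Rik (0.95), P2ry6 (0.95), Serpine2 (0.94) and Plbd1 (0.94). Over the 9 libraries they were Zcchc24 (0.99), Plekhb1 (0.99), Id3 (0.99), Crispld1 (0.98) and Plbd1 (0.98), so that 1 gene was in both lists. Notch1, which encodes a receptor of cell fate signaling, was at 41.5 to 63.2 CPM in MN, 35.2 to 56.2 in MT, 78.4 to 121.1 in FN, and 104.4, 52.5 and 144.2 in FT, where FT2 lay within the range of the males. Serpine2 stood at 54.5 to 81.4 CPM in MN, 50.3 to 100.3 in MT, 84.4 to 132.9 in FN and 88.0 to 176.4 in FT, with MT3 within the range of FN, while P2ry6 and Plbd1 were under 1 CPM in the 3 MN libraries and so rest on few reads.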

How the data were processed

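RNA of 12 samples of WGA-sorted lingual TG neurons (MN, MT, FN and FT, 3 each, grouped by title) was sequenced after SMART-seq2 library preparation. Per the submitters' processing notes, CASAVA 1.8.2, TopHat2, SAMtools and HTSeq were used with build mm9, and the authors deposited whole read counts per gene symbol without normalization. The annotation and the strand setting are not given in the sources used here. Rows without a gene name (76.3% to 88.8% of all reads, those mapped to several places included) were left out.

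Counts were tested with edgeR 4.0.16 in R 4.3.3 (TMM, filterByExpr with minimum count 10 and minimum total count 15, quasi-likelihood test, 12 libraries, 1 mean per group, no block), with p-values adjusted by the Benjamini-Hochberg method over 13835 genes, or 13360 where the sexes were compared. The standard error is the log2 fold change over the root of the F statistic. CPM used the reads on genes, log2 CPM a prior count of 2, and RPKM the summed exon lengths of GENCODE release M1, which matched 21627 of 22609 symbols. The test was also run on simulated counts with a shared mean profile for all libraries and changes in MT only. These held no libraries that stood apart, so they do not bear on the part of FN2, FT2 and FT3. Alternatives used DESeq2 1.42.0, its size factors, limma 3.58.1 with voom and quality weights, no filter, the compared groups alone, the replicate block, other thresholds and each library left out.

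The 9 genes and the marker lists were chosen with earlier results of these data known. Beyond the 9, the rule named at most 3 listed genes per comparison (smallest p), the 5 genes most like the 9, and Xist and Ddx3y. Other listed genes, among them Lgi4, Sparc, Kcnj10, Cx3cr1, Ptprc, Itgam, Emr1, Avil and Calca, were added after their values were seen. Results of 1 listed gene are not reported here. Each sample was a pool of mice, and p-values measure only the spread between these samples. Python 3.11.15, numpy 2.4.6, pandas 2.3.3 and matplotlib 3.10.9 were used for tables and figures.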

Additional observations from a re-analysis of the deposited data

Results flagged for a closer look

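The difference between the sexes in the tumor effect on Fabp7 met the criteria of the study in a test of the difference itself, with a log2 difference of 1.78 (SE 0.68), but did not pass the correction for all genes, with an adjusted p of 0.9997 by edgeR over 12 libraries. All 3 MT libraries were below all 3 MN libraries, whereas FT3 was above and FT2 below all 3 FN libraries. It was 0.80 and no longer called without FT3, 2.30 in 10 libraries and 1.03 in 9 libraries. Groups of 3 libraries were too small for a test of single outlying values. The study had listed Fabp7 as lower in MT than in MN and higher in FT than in FN.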

How the results depend on the processing

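Of all genes, limma-voom called 133 in MT versus MN and 520 in FT versus FN by the criteria of the study. It called 510 in FN versus MN and 569 in the difference between the sexes. The replicate block gave 15 in MT versus MN and 200 in FT versus FN, and DESeq2 size factors gave 17 in MT versus MN. The number of the 9 genes called by these criteria changed as follows, where the adjusted p as the threshold is that of edgeR over 12 libraries. In MT versus MN (2 genes) it was 3 with limma-voom, with the compared groups alone, in 10 libraries and in 9 libraries, 0 with DESeq2 size factors, 1 with the replicate block, 0 with the adjusted p, and 0 to 2 when 1 library was left out. In FT versus FN (0 genes) it was 2 with limma-voom, 1 with the replicate block, 3 in 10 libraries, 2 in 9 libraries, and 0 to 2 when 1 library was left out. In FN versus MN (3 genes) it was 6 with limma-voom, 5 in 10 libraries, 6 in 9 libraries and 0 with the adjusted p. In FT versus MT (5 genes) it was 6 in 10 libraries, 0 with the adjusted p, and 4 to 6 when 1 library was left out. With an adjusted p under 0.05, DESeq2 called 1 of the 9 in FN versus MN (20 of all genes) and 3 in FT versus MT (246). With the same threshold limma-voom called 2 in MT versus MN (47 of all genes) and 6 in FN versus MN (800). In the difference between the sexes (1 gene) it was 2 with limma-voom, 2 in 10 libraries, 2 in 9 libraries, 0 with the adjusted p, and 0 to 2 when 1 library was left out.

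Whether equal replicate numbers pair the samples could not be decided from the values, since FN2, FT2 and FT3 stood apart. The deviations from the group means correlated at 0.03, 0.13 and 0.20 in MN and MT and at 0.57, 0.20 and -0.36 in FN and FT, so the replicate block was an alternative only. Under it Fabp7 (-1.05) lost its call in MT versus MN and Gja1 (-0.85) gained one in FT versus FN.

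Signs changed only in values that were not called over 12 libraries. In FT versus FN, Ednrb was at 0.036 with DESeq2 size factors, 0.037 with DESeq2 and 0.024 with the compared groups alone. With limma-voom, Apoe (0.41) and Slc1a3 (-0.64) changed sign there, Gja1 (0.12) in FT versus MT, and Apod (0.28) and Slc1a3 (-0.10) in the difference between the sexes. In 10 libraries the same values were 0.83 for Apoe, -0.81 for Slc1a3, 0.18 for Gja1, 0.28 for Apod and -0.40 for Slc1a3. In 9 libraries Fabp7 (-0.010), Glul (-0.12) and Slc1a3 (-0.77) changed sign in FT versus FN, Gja1 (0.39) in FT versus MT, and Apoe (-0.13), Glul (-0.17) and Slc1a3 (-0.36) in the difference.

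When 1 library was left out, FT versus FN ran from -0.17 to 1.36 for Apod, -0.58 to 0.73 for Apoe, -0.20 to 0.17 for Ednrb, -0.23 to 1.07 for Fabp7, -0.22 to 0.49 for Glul and -0.71 to 0.47 for Slc1a3. The difference between the sexes ran from -1.41 to 0.13 for Apod, -0.37 to 0.94 for Apoe, -0.27 to 0.44 for Glul and -0.30 to 0.88 for Slc1a3. Gja1 ran from -0.50 to 0.18 in FT versus MT, and in MT versus MN Glul ran from -0.10 to 0.17 and Sox10 from -0.35 to 0.15. Of 540 values with 1 library left out, 22 changed sign, 19 lost a call and 8 gained one, and of 351 other values 20 changed sign, 4 lost a call and 25 gained one. The causes were not tested. Slc1a3 rested on 47 to 155 reads a library, which limits its precision.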
